A study of Mus musculus with 18 samples.

Results

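The interaction of cell line with time of oxyhemoglobin was measured over all 18 of the 18 libraries of the series. For each gene it is the change from control to 12 h (or to 24 h) in the BAK1-KD line minus the same change in the NC line, on the log2 scale, so that a positive value means a larger rise or a smaller fall in the BAK1-KD line. The same number equals the line difference (KD minus NC) after treatment minus the line difference at control, so that each interaction can be traced to lines that started unequal, to lines that ended unequal, or to both. The samples were cells of the immortalized murine microglial line BV2, in 6 groups of 3 libraries: NC and BAK1-KD cells at control (0 h), and each of them after 12 h and 24 h of oxyhemoglobin. All 12 treated libraries carry a labelled dose of 10 mM, a unit that is uncertain because it is very high for a protein. The labels do not spell out NC or KD and do not say how the knockdown was made or whether a line is a clone or a pool. They do not say that libraries of a group came from separate cultures, so the p-values below measure only the spread between these libraries. No untreated library at 12 h or 24 h is among the samples, so time in culture and oxyhemoglobin cannot be told apart.

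Oxyhemoglobin is the oxygen-carrying protein of red cells, and its release from clots after brain bleeding exposes microglia to heme and iron. BAK1 is a pore-forming protein of the outer mitochondrial membrane that acts in apoptosis. When amino acids run short, heme is lacking or the endoplasmic reticulum or mitochondria are stressed, cells phosphorylate eIF2 alpha and translate more of the transcription factor ATF4, which raises genes of amino acid synthesis, amino acid transport, tRNA charging and one-carbon metabolism. This program is called the integrated stress response, and many of its genes carry a C/EBP-ATF response element near their start. Interferon signaling is a separate program, in which transcription factor complexes bind interferon-stimulated response elements.

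The gene named in the labels, Bak1, was too low to be tested. Its counts were 3, 3 and 0 in the NC control libraries, 2, 7 and 4 in NC at 12 h, and 1, 0 and 5 in NC at 24 h. They were 2, 4 and 7 in the KD control libraries, 4, 1 and 5 in KD at 12 h, and 12, 2 and 2 in KD at 24 h. The 39 counts in KD libraries against 25 in NC libraries gave a rate ratio of 1.56 (95% interval 0.920 to 2.69, exact two-sided p = 0.103 in a conditional test on the counts, which covers counting error only). Bak1 was therefore not lower in the libraries labelled KD, and all directions below refer to the line labels only. Of its exon bases, 25.5% overlap Ggnbp1 on the other strand, and no source used here says whether reads were counted by strand. Library totals ran from 4361313 to 6008810 counts. The most abundant gene took 12.89% to 25.27% of a library, and mitochondrially encoded genes took 0.605% to 2.37%. Of 13 microglia and macrophage markers all had counts, with Aif1 at 43 and P2ry12 at 8 counts over all libraries. Their summed level was 506 to 713 CPM in NC libraries and 631 to 941 CPM in KD libraries, where CPM is the count scaled to a common library total. The erythroid markers Hbb-bs, Hbb-bt, Hba-a1 and Hba-a2 were at 0 in every library, as were Rbfox3 and Snap25 (neurons), Aqp4 (astrocytes), Mog (oligodendrocytes), Col1a2 (fibroblasts) and Cd3e (T cells). Some members of the same lists had counts in every library. Alas2 (erythroid) had 2.16 to 7.97 CPM, S100b (astrocytes) 1.42 to 8.06 CPM and Mbp (oligodendrocytes) 1.48 to 7.79 CPM. Pecam1 and Kdr (endothelium) had 0.784 to 4.22 and 0.362 to 7.16 CPM, and Cd79a (lymphocytes) 0.884 to 4.25 CPM. Of 6 neuron markers 4 were at 0, and the sum, led by the tubulin gene Tubb3, was 0.782 to 3.11 CPM in NC and 3.32 to 10.1 CPM in KD libraries. The part of these differences in the results was not tested.

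Few genes passed the test of an interaction in the fit without a term for the library number. At 12 h, 12 of the 15996 genes tested (0.075%) passed an adjusted p of 0.05 (quasi-likelihood F test of edgeR, Benjamini-Hochberg adjusted), 10 with a positive and 2 with a negative interaction. This balance depended on the fit: it was 11 against 6 with the largest gene left out of the scaling, 28 against 23 in DESeq2 and 27 against 19 without a filter on low counts. With a term for the library number (replicate block) it turned, to 126 against 205. At 24 h, 5 genes (0.0313%) passed, 4 positive and 1 negative. The joint test of both times passed 10 genes (0.0625%), and the difference between the 24 h and 12 h interactions passed 1 gene (0.00625%). Together these tests named 13 genes. With the term for the library number, 331 genes passed at 12 h, 193 at 24 h, 415 jointly and 112 between times. Whether that number pairs samples is not in the labels. An unadjusted p under 0.05 was reached by 904 genes (5.65%) at 12 h, 740 (4.63%) at 24 h and 794 (4.96%) jointly, where 5% is the share of uniform p-values below that level. In the fit without that term, the median standard error of an interaction was 0.432 at either time. The smallest interaction that passed there was 1.01 at 12 h and 1.13 at 24 h, so none under a doubling passed. The count at 12 h was 3 without NC 12 h library 1, 6 without KD control 1 or KD 12 h 2, and 7 without NC control 2, NC 12 h 3, KD control 2 or 3, or KD 12 h 3. It was 19 without NC control 1. The count at 24 h was 2 without NC control 3 or KD 24 h 1 or 3, and 3 without NC control 1, NC 24 h 2 or 3, or KD control 2. It was 9 without NC 12 h 2, and 10 without NC 24 h 1. The joint count was 4 without NC control 3 or NC 12 h 1, and 5 or 6 without NC control 2, NC 12 h 3, KD control 2 or 3, or any KD 12 h or KD 24 h library.

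Most of these 12 and 5 interactions came from lines that started unequal, in a fit that has no term for the library number. At 12 h, 10 of the 12 genes had a line difference past the threshold at control and not at 12 h, and 2 (Sgo2a and Kcnj2) at 12 h and not at control. A difference that did not pass may still be present. At 24 h, 4 of the 5 genes differed past the threshold at control only, and Serpinb1a differed at control and, in the same direction, more strongly at 24 h. Line differences at control passed for 330 (2.06%) of all genes, at 12 h for 256 (1.6%) and at 24 h for 223 (1.39%). By size rather than by test, the line difference after treatment made up at most 0.25 of the interaction in 9 genes at 12 h and 4 genes at 24 h, at least 0.75 in 1 gene at each time, and a share between these in Sgo2a (0.66) and Ifit3 (0.44). In 10 of the 13 genes the KD control was lower past the threshold. The 3 KD and 3 NC libraries did not overlap at control in 12 of the 13 genes, at 12 h in 9 and at 24 h in 8. Over all tested genes the libraries did not overlap in 16.7%, 16.6% and 17.2%. The 13 genes were chosen by interaction tests on these same libraries, which favors lines that stand apart. These counts among the 13 genes therefore describe them and are not separate support. Tests at 12 h and 24 h use the same 6 control libraries, and the 4 genes that passed at both times (AC147806.2, Trib3, Aldh1l2 and Plau) are not independent evidence of each other.

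**Figure D1:**
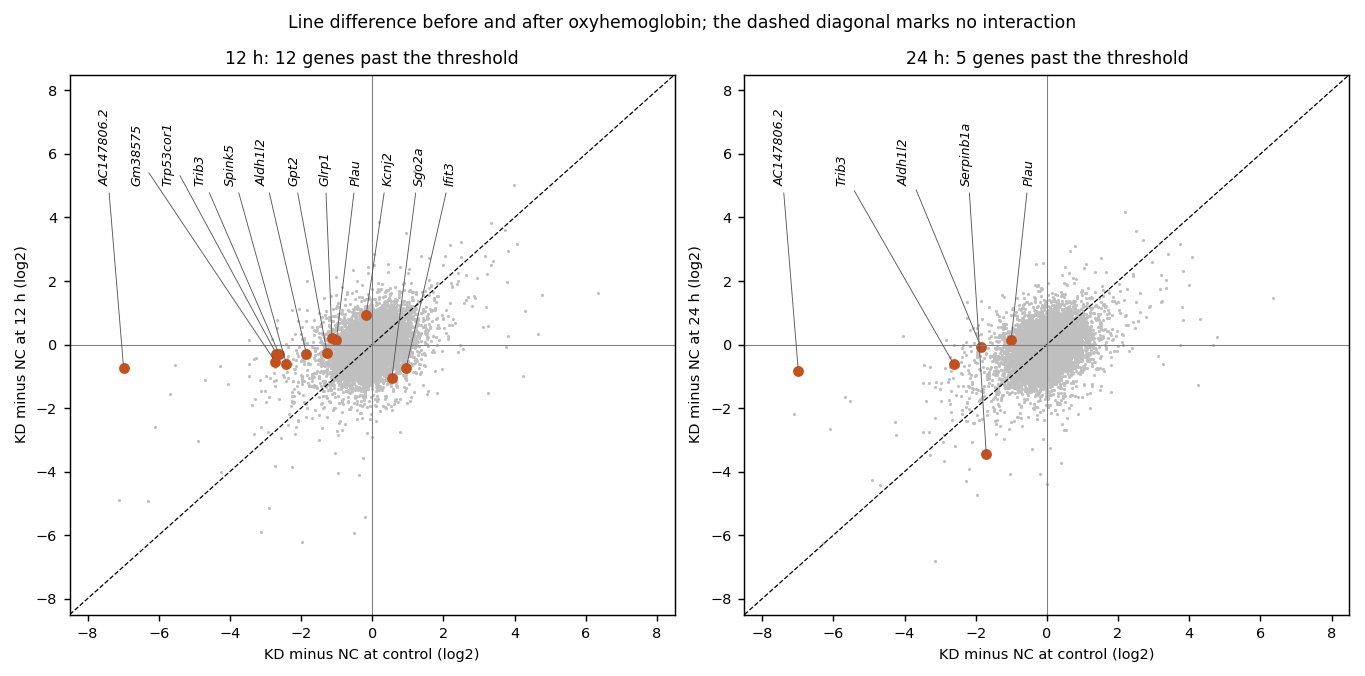
Line difference (KD minus NC, log2) at control on the x axis against the line difference at 12 h (left) or 24 h (right) on the y axis, 1 point per tested gene, with the 12 and 5 genes past the threshold in orange. Most orange points lie nearer the horizontal line at 0 and left of the vertical one, which is a gap at control that is smaller after treatment. In the left panel Kcnj2 and Sgo2a lie away from the horizontal line. Ifit3 lies there at 0.95 at control and -0.74 at 12 h. In the right panel Serpinb1a lies below the horizontal line at -3.45. The position of AC147806.2 is a fitted value against libraries at 0.

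The genes named in the fit without that term stand against responses that the lines largely shared in the same fit. From control to 12 h, 1958 genes (12.2%) passed in NC and 2558 (16%) in KD, and 1428 passed in the same direction in both, which is 72.9% of the NC genes and 55.8% of the KD genes. Genes that passed in opposite directions numbered 5 at 12 h and 1 at 24 h. From control to 24 h, 1211 genes (7.57%) passed in NC, 1534 (9.59%) in KD, and 792 in the same direction in both. Of the 3083 genes that passed in either line at 12 h, 95.7% had the same sign in both, beside 72.1% of all tested genes, and 12 had an interaction past the threshold. Over the 1428 genes with the same direction in both lines at 12 h, the median size of the change was 1.09 in NC and 1.23 in KD. The median size of their interaction was 0.25. These genes were chosen for passing in the same direction in both lines, which favors a small interaction. Heme oxygenase Hmox1, the enzyme that breaks down heme, rose by 2.26 in NC and 2.27 in KD at 12 h, with an interaction of 0.01. The inflammatory cytokine gene Il1b rose by 7.84 in NC and 7.69 in KD, with an interaction of -0.16.

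**Figure D2:**
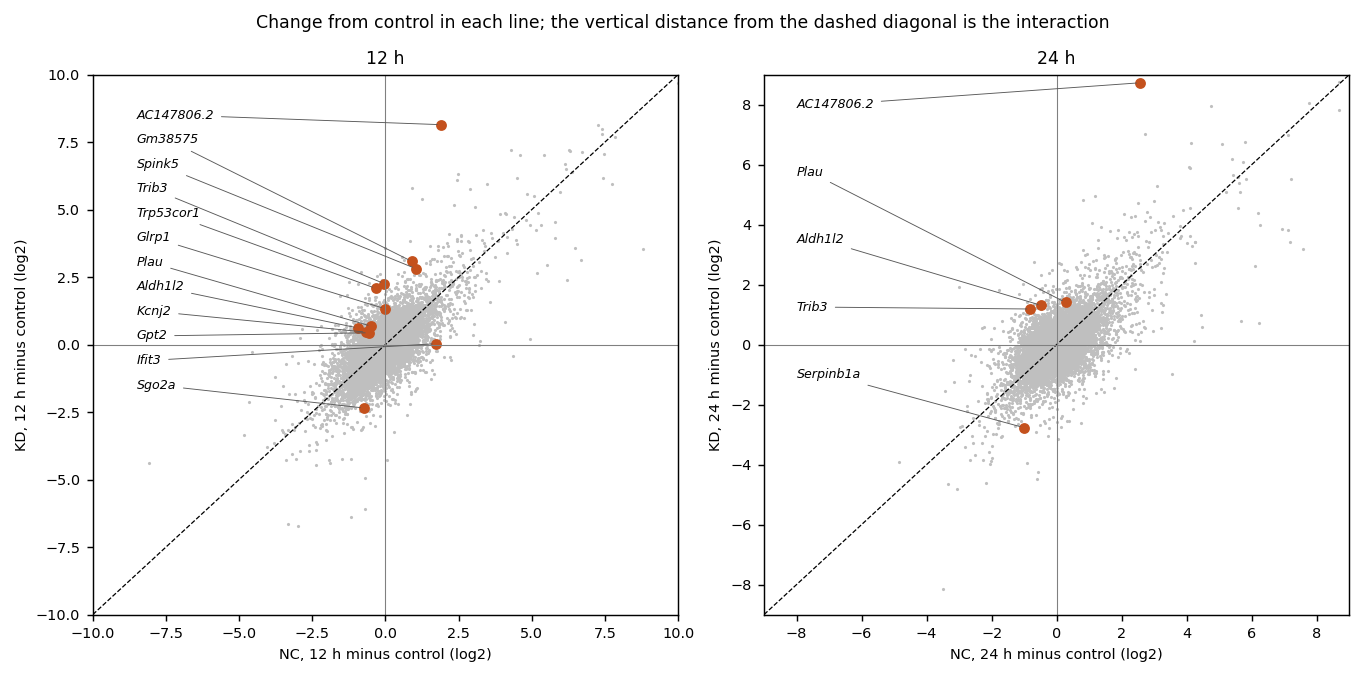
Change from control (log2) in the NC line on the x axis and in the KD line on the y axis at 12 h (left) and 24 h (right), 1 point per tested gene, with genes past the threshold of the interaction in orange. The cloud follows the dashed diagonal of equal change, and the orange genes sit above it except Ifit3 and Sgo2a at 12 h and Serpinb1a at 24 h.

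Trib3 and Aldh1l2, both ATF4 targets, were the members of the integrated stress response that passed in the fit without a term for the library number. Trib3 (chromosome 2, 152337422 to 152344032, minus strand, GRCm38), a pseudokinase that feeds back on ATF4, stood at 508, 352 and 470 CPM in the NC control libraries and at 78.1, 52.9 and 86.1 CPM in the KD control libraries. At 12 h it stood at 493, 302 and 487 CPM in NC and at 389, 255 and 394 CPM in KD. At 24 h it stood at 323, 189 and 246 CPM in NC and 183, 135 and 175 CPM in KD. All KD control libraries were lower than every NC library, while the lines overlapped at 12 h and did not overlap at 24 h. KD cells thus began low and rose by 2.26 ± 0.25 (log2 ± SE, adjusted p = 7.41e-07) by 12 h, while NC cells began high and moved by -0.05 ± 0.23 (adjusted p = 0.93). The interaction was 2.31 ± 0.34 at 12 h (adjusted p = 0.00578) and 1.99 ± 0.34 at 24 h (adjusted p = 0.0252). The line difference was -2.62 ± 0.25 at control (adjusted p = 1.33e-06) and -0.30 at 12 h (95% interval -0.79 to 0.18, adjusted p = 0.657), so the interaction came from unequal controls. At 24 h the difference was -0.62 (adjusted p = 0.244), NC had fallen by 0.81 and KD had risen by 1.18. The 12 h call held without any of the 18 libraries, and the 24 h call was lost without any of 8 (adjusted p up to 0.0829, without the third KD 24 h library; the others were NC control 1 and 3, NC 24 h 2 and 3, KD control 1 and 2, and KD 24 h 1).

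Aldh1l2 (chromosome 10, 83487450 to 83534140, minus strand), a mitochondrial enzyme of folate metabolism, had 80.5, 87.9 and 84.3 CPM in NC control and 29.7, 20.7 and 19.8 CPM in KD control. Levels at 12 h were 48.0, 37.2 and 46.0 CPM in NC and 40.0, 31.6 and 35.7 CPM in KD. Levels at 24 h were 59.8, 59.1 and 63.7 CPM in NC and 60.8, 52.7 and 59.3 CPM in KD. The lines were far apart at control and overlapped at both treated times. The approach came from both sides at 12 h, where NC fell by 0.95 ± 0.17 (adjusted p = 0.000401) and KD rose by 0.61 ± 0.18 (adjusted p = 0.0174). The interaction was 1.56 ± 0.24 at 12 h (adjusted p = 0.00915) and 1.77 ± 0.24 at 24 h (adjusted p = 0.00173). The line difference went from -1.85 at control to -0.29 at 12 h (95% interval -0.64 to 0.07) and -0.08 at 24 h (-0.43 to 0.27), again unequal controls. Both calls held without any of the 18 libraries. Of its exon bases, 14.1% overlap D10Wsu102e on the other strand.

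The promoter table (RefSeq, GRCm38.p6, 250 bases before to 50 after each start) held 6 of the 13 genes and 22 of the 28 genes on the integrated stress response list. The 9-letter response element TGATGNAAN, searched on both strands, was in 3.95% of all 32851 windows and in 7 of the 26 windows of the list's genes. Other elements were searched too, and the antioxidant response element (TGACNNNGC) was in 8 of these 26 windows, beside 12.4% of all windows. Trib3 is shown because it passed, and Ifit3 because it is the interferon gene that passed. Chac1 and Asns are shown as members with the same letters as Trib3 and a KD control past the threshold. Gars, which also meets this, is not shown. Capitals mark the 9-letter response element in Trib3, Chac1 and Asns. In Ifit3 they mark 2 copies of the interferon-stimulated core (GAAA, any 2 bases, GAAA, both strands searched), which 3.44% of all windows hold. The letters read as their reverse complement in Trib3, Chac1 and Ifit3. A match describes letters in the window and is not a measured binding site.
Trib3 (chr2:152344011-152344310, minus strand, element at bases 264 to 272): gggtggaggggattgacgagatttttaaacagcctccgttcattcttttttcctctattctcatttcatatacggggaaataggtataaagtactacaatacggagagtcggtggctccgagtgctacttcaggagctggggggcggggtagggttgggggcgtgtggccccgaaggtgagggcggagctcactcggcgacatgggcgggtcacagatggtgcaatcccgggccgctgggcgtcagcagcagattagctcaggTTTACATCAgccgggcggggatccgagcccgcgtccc
Chac1 (chr2:119350992-119351291, plus strand, element at bases 57 to 65): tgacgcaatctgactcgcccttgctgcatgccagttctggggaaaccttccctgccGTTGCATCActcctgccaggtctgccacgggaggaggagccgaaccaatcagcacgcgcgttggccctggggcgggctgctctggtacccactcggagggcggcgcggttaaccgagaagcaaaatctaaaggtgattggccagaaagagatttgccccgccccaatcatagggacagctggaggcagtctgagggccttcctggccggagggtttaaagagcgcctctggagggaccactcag
Asns (chr6:7693160-7693459, minus strand, element at bases 228 to 236): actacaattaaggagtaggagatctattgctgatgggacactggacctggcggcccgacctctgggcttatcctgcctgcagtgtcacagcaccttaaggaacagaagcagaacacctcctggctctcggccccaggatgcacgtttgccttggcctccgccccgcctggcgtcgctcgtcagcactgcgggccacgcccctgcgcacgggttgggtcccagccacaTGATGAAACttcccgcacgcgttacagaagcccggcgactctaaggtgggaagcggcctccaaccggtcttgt
Ifit3 (chr19:34583279-34583578, plus strand, cores at bases 95 to 104 and 129 to 138): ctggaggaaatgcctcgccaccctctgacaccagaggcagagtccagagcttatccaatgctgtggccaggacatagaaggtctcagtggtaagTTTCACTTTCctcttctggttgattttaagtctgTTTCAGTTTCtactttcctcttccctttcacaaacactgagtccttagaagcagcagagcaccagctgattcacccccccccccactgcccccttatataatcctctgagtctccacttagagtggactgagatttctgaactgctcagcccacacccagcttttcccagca

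Across the integrated stress response list, the lines differed at control and much less afterwards. Of 26 tested members, 16 were lower in KD at control (1.3% of all tested genes were), 1 at 12 h (1.1% of all genes; Ddit4) and 0 at 24 h (0.925% of all genes), and none was higher at any time (0.763%, 0.5% and 0.469% of all genes were). The median line difference was -0.84 at control, -0.20 at 12 h and -0.10 at 24 h, beside 0.00, -0.01 and -0.00 over all tested genes. The interaction was positive in 25 of 26 members at either time, with a median of 0.79 at 12 h and 0.70 at 24 h, beside -0.01 and -0.00 over all genes, and passed in 2 members at each time (0.0625% and 0.025% of all genes passed in that direction). With a term for the library number, 11 members passed as positive at each time, beside 126 of all tested genes at 12 h and 122 at 24 h. From control to 12 h, 16 members rose and 1 fell in KD (7.93% and 8.06% of all genes), and 2 rose and 3 fell in NC (6.69% and 5.55%). From control to 24 h, 11 rose and 1 fell in KD (5.5% and 4.09% of all genes), and 0 rose and 2 fell in NC (4.66% and 2.91%). The 16 lower at control included transporters and synthesis genes (Slc7a5, Asns, Shmt2, Psat1), tRNA ligases (Cars, Sars, Gars), the folate enzyme Mthfd2, and the stress regulators Ddit3, Sesn2, Cebpg and Ppp1r15a. Chac1, which degrades glutathione, was at 58.9, 37.3 and 57.4 CPM in NC control and 17.1, 11.3 and 15.0 CPM in KD control. At 12 h it was at 82.8, 52.1 and 69.4 CPM in NC and 63.7, 51.6 and 65.4 CPM in KD, so that the gap at control was not seen at 12 h. Its interaction of 1.65 ± 0.33 at 12 h fell just outside the threshold (adjusted p = 0.0532). Asns, asparagine synthetase, went from -1.22 at control (adjusted p = 0.0229) to 0.10 at 12 h, with an interaction of 1.31 (adjusted p = 0.396). Ddit4 was the exception among the strongly lower members: it was lower in KD by 1.09 at control and 1.05 at 12 h, with an interaction of 0.04. The transcript of Atf4 itself, whose control is mainly translational, had a line difference of -1.06 at control (adjusted p = 0.216) and an interaction of 1.30 at 12 h (adjusted p = 0.794). The count of members lower at control was 10, 8 and 10 without KD control library 1, 2 and 3.

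**Figure D3:**
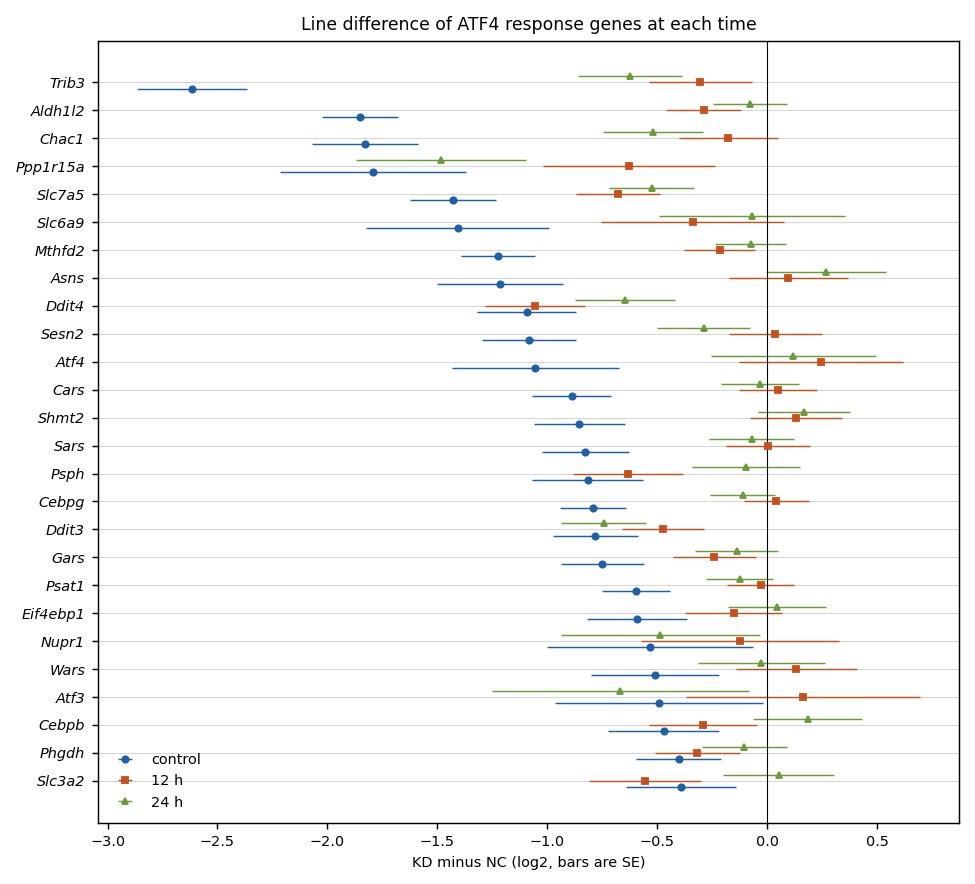
Line difference (KD minus NC, log2, bars are SE) of the 26 tested members of the integrated stress response list at control, 12 h and 24 h, 1 gene per row ordered by the control value. The control points run from -2.62 (Trib3) to -0.39 and lie left of 0 throughout, while the points at 12 h and 24 h lie closer to 0 for most genes and Ddit4 keeps its 12 h point beside its control point.

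Plau and Gpt2 also started from a gap at control, with changes in opposite directions in the lines at 12 h. Plau (chromosome 14, 20836660 to 20843385, plus strand), the urokinase-type plasminogen activator, had 253, 235 and 240 CPM in NC control and 113, 110 and 139 CPM in KD control. After 12 h of oxyhemoglobin it had 174, 156 and 192 CPM in NC and 201, 171 and 208 CPM in KD. At 24 h it had 294, 287 and 296 CPM in NC and 360, 281 and 318 CPM in KD. The lines were apart at control and overlapped at both treated times. The interaction was 1.16 ± 0.21 at 12 h (adjusted p = 0.019) and 1.13 ± 0.21 at 24 h (adjusted p = 0.0447), and the line difference was -1.01 ± 0.15 at control, 0.15 ± 0.14 at 12 h and 0.13 ± 0.14 at 24 h. Gpt2 (chromosome 8, 85492576 to 85527560, plus strand), the mitochondrial alanine aminotransferase, had 125, 137 and 138 CPM in NC control and 55.5, 57.8 and 52.6 CPM in KD control. At 12 h it had 88.5, 84.2 and 96.7 CPM in NC and 76.2, 69.0 and 79.4 CPM in KD, lower in every KD library but closer. Levels at 24 h were 98.5, 105 and 97.6 CPM in NC and 80.2, 82.4 and 77.9 CPM in KD. Its interaction was 1.01 ± 0.19 at 12 h (adjusted p = 0.0328) and 0.95 ± 0.19 at 24 h (adjusted p = 0.0871), from a line difference of -1.27 at control that was -0.26 at 12 h. The 12 h call of Plau was lost without NC 12 h library 1, KD control 1 or 2, or KD 12 h 1 or 3 (adjusted p 0.0568 to 0.0878). Its 24 h call was lost without NC control 1 or 3, NC 12 h 1, NC 24 h 2 or 3, KD control 1 or 2, KD 12 h 1 or 3, or KD 24 h 1 or 3 (0.0634 to 0.145). The 12 h call of Gpt2 was lost without any 1 of the 12 control and 12 h libraries except NC control 1 (0.0558 to 0.136).

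In Glrp1, Trp53cor1, Spink5, Gm38575 and AC147806.2 the KD line rose by 12 h from a low control. Glrp1 (chromosome 1, 88499871 to 88510066) had 43.0, 58.4 and 48.8 CPM in NC control and 20.3, 25.9 and 22.3 CPM in KD control. Levels at 12 h were 48.6, 49.2 and 50.7 CPM in NC and 54.6, 52.1 and 65.6 CPM in KD. At 24 h it had 48.4, 54.4 and 57.5 CPM in NC and 42.4, 49.6 and 39.8 CPM in KD. Every KD library was below every NC library at control and above at 12 h, and the lines overlapped at 24 h, for an interaction of 1.34 ± 0.24 (adjusted p = 0.019) from a control difference of -1.13 and a 12 h difference of 0.21 (adjusted p = 0.656). Trp53cor1 (chromosome 17, 29057430 to 29079179, minus strand), the long noncoding RNA lincRNA-p21, had 17.5, 14.0 and 16.9 CPM in NC control and 2.13, 1.68 and 3.75 CPM in KD control. After 12 h of oxyhemoglobin it had 11.3, 12.9 and 14.3 CPM in NC and 13.4, 12.0 and 6.09 CPM in KD. The lines overlapped at 12 h and separated again at 24 h, at 21.3, 21.8 and 18.2 CPM in NC and 7.53, 8.997 and 5.72 CPM in KD. Its interaction was 2.41 ± 0.42 at 12 h (adjusted p = 0.019) and 1.24 ± 0.43 at 24 h (adjusted p = 0.697), and 44.1% of its exon bases overlap AC167363.1 on the other strand. The 12 h call of Glrp1 was lost without 6 libraries (NC control 2, NC 12 h 1 and 3, KD control 1 and 3, KD 12 h 3; adjusted p up to 0.0962), and that of Trp53cor1 without 5 (NC 12 h 1, KD control 1 and 2, KD 12 h 1 and 2; up to 0.083).

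Spink5, Gm38575 and AC147806.2 rose in both lines, more steeply in KD on the log2 scale. Spink5 (chromosome 18, 43963235 to 44022501), a serine protease inhibitor, had 45.1, 67.5 and 46.1 CPM in NC control and 9.39, 12.7 and 7.49 CPM in KD control. At 12 h it had 101, 131 and 92.7 CPM in NC against 67.8, 81.7 and 60.7 CPM in KD. Levels at 24 h were 131, 175 and 133 CPM in NC and 81.6, 93.1 and 62.2 CPM in KD. KD was thus below NC throughout, and on the log2 scale the gap was widest at control. The interaction was 1.78 ± 0.31 at 12 h (adjusted p = 0.019) and 1.52 ± 0.31 at 24 h (adjusted p = 0.0871), with line differences of -2.41 at control, -0.63 at 12 h (adjusted p = 0.164) and -0.89 at 24 h (adjusted p = 0.0336). Gm38575, a noncoding transcript on chromosome 10 (85220942 to 85266392), had 8.78 to 10.2 CPM in NC control and 0.832 to 2.35 CPM in KD control. Levels at 12 h were 16.4 to 18.7 CPM in NC against 11.02 to 13.1 CPM in KD. Its interaction was 2.19 ± 0.41 at 12 h (adjusted p = 0.0328) and 2.01 at 24 h (adjusted p = 0.0908). AC147806.2, listed as protein coding in the deposited table and with no position given here, had 15, 19 and 15 counts in NC control and 0 in each KD control library. After 12 h of oxyhemoglobin it had 56, 61 and 57 counts in NC and 32, 37 and 34 in KD. Its counts were 73, 102 and 97 in NC and 44, 60 and 47 in KD at 24 h. With 3 counts over the KD control group as the floor, KD rose at least 37.2-fold by 12 h and at least 55.0-fold by 24 h, while NC rose 3.72-fold and 5.95-fold. The interaction was at least 3.33 at 12 h and 3.21 at 24 h on the log2 scale (adjusted p = 0.00283 and 0.00173). At control the KD level was at least 16.6-fold lower than the NC level. The calls of AC147806.2 held without any of the 18 libraries. That of Spink5 was lost without 6 (NC control 2, NC 12 h 1 and 3, KD control 1 and 3, KD 12 h 2; adjusted p up to 0.125), and that of Gm38575 without any 1 of the 12 control and 12 h libraries except NC 12 h 2 and KD control 1 (0.0563 to 0.201).

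Kcnj2 and Sgo2a differed through their treated levels. Kcnj2 (chromosome 11, 111066164 to 111076821, plus strand), the inward rectifier potassium channel Kir2.1, had 119, 133 and 135 CPM in NC control and 112, 111 and 120 CPM in KD control, which overlap. At 12 h NC had fallen to 72.9, 81.9 and 90.4 CPM and KD had risen to 154, 152 and 166 CPM, and the lines were far apart. At 24 h the order turned, with 111, 117 and 137 CPM in NC and 81.6, 95.4 and 89.8 CPM in KD. The interaction was 1.11 ± 0.20 at 12 h (adjusted p = 0.019) and -0.29 ± 0.20 at 24 h (adjusted p = 1), and their difference of -1.40 ± 0.20 was the only one past the threshold (adjusted p = 0.00742). The line difference was -0.17 ± 0.14 at control (adjusted p = 0.722) and 0.94 ± 0.14 at 12 h (adjusted p = 0.000833). The 12 h call was lost without 9 libraries (all 3 of KD control and of KD 12 h, NC control 2 and 3, NC 12 h 1; adjusted p 0.0521 to 0.0992). The difference between times was lost without NC 12 h 1 or KD 24 h 1 (0.0648 and 0.0607). The joint test (adjusted p = 0.00455) held without any of the 18, but not in the TPM fits or without all 6 libraries numbered 2. The joint calls of Trib3, Aldh1l2 and AC147806.2 also held without any of the 18. With 1 library left out, the joint call was lost in 15 of 18 fits for Gpt2 and Ifit3 and in 13 for Sgo2a and Spink5. It was lost in 10 for Serpinb1a and in 5 for Plau.

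Sgo2a (chromosome 1, 57995971 to 58025899, plus strand), a shugoshin that protects cohesion of sister chromatids at centromeres, fell in both lines at 12 h and further in KD. It had 28.0, 32.2 and 32.5 CPM in NC control and 38.2, 50.8 and 46.4 CPM in KD control. At 12 h it had 19.8, 16.4 and 19.6 CPM in NC and 9.72, 9.43 and 7.36 CPM in KD. KD was thus higher in every library at control and lower in every library at 12 h. At 24 h the lines overlapped at 30.9, 37.3 and 40.3 CPM in NC and 36.8, 34.3 and 33.1 CPM in KD. The interaction was -1.62 ± 0.26 at 12 h (adjusted p = 0.0115), with line differences of 0.55 ± 0.17 at control (adjusted p = 0.125) and -1.07 ± 0.19 at 12 h (adjusted p = 0.00507). By test the treated levels were unequal and by size 0.66 of the interaction lay there. The call was lost without NC 12 h library 1 (adjusted p = 0.0579), and 35% of the exon bases overlap Kctd18 on the other strand.

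Serpinb1a (chromosome 13, 32842092 to 32851185, minus strand), an inhibitor of neutrophil serine proteases, was lower in KD throughout and fell further at 24 h. It had 272, 233 and 275 CPM in NC control and 63.2, 68.5 and 108 CPM in KD control. Levels at 12 h were 130, 105 and 162 CPM in NC and 23.5, 27.7 and 27.9 CPM in KD. By 24 h the libraries stood at 121, 116 and 148 CPM in NC and 12.96, 11.09 and 10.96 CPM in KD. The lines never overlapped, and from 12 h to 24 h the NC mean went from 133 to 128 CPM and the KD mean from 26.4 to 11.7 CPM. The interaction was -0.62 ± 0.28 at 12 h (adjusted p = 0.846) and -1.75 ± 0.29 at 24 h (adjusted p = 0.0186), and the line difference went from -1.70 at control to -2.33 and -3.45. Here the treated levels were more unequal than the controls, in the same direction. The 24 h call was lost without NC control 3, NC 24 h 3 or any KD 24 h library (adjusted p 0.0506 to 0.0829), and reads shared with its close family members could not be separated.

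**Figure D4:**
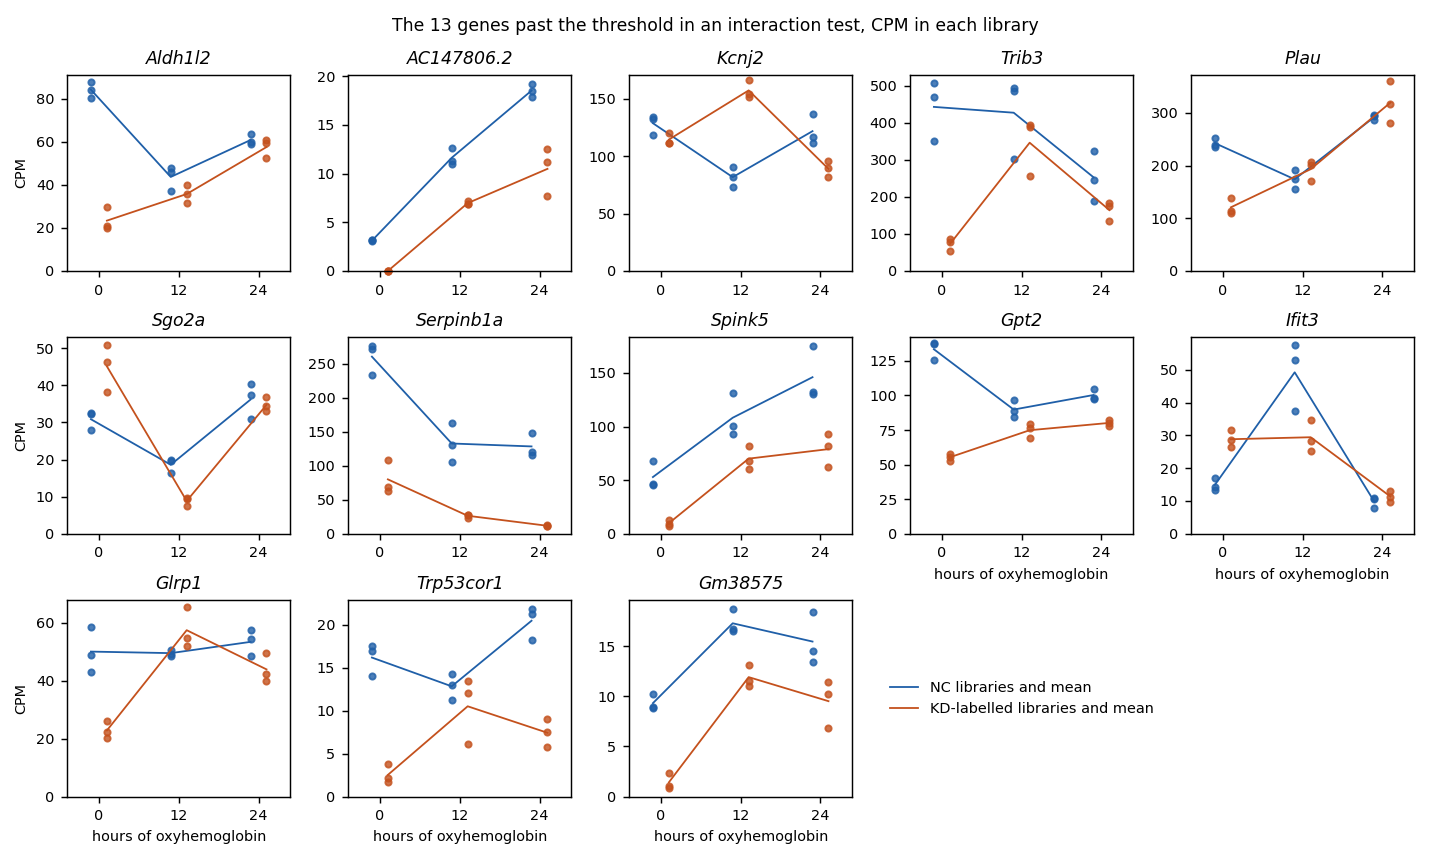
CPM in each library (points) and group means (lines) of the 13 genes past the threshold, with hours of oxyhemoglobin on the x axis, NC in blue and KD-labelled in orange, each panel on its own linear scale from 0. In 10 panels and Kcnj2 the orange control mean lies below the blue one, and in Sgo2a and Ifit3 above it, while at 12 h the orange mean is the higher one in Kcnj2, Plau and Glrp1.

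Ifit3 (chromosome 19, 34583531 to 34588731, plus strand), an interferon-induced antiviral gene, rose in NC by 12 h, from a control below that of KD. It had 14.4, 13.2 and 17.1 CPM in NC control and 31.6, 26.4 and 28.5 CPM in KD control. After 12 h of oxyhemoglobin it had 57.4, 37.4 and 52.9 CPM in NC and 34.8, 25.1 and 28.4 CPM in KD. KD was higher in every library at control and lower in every library at 12 h. At 24 h the lines overlapped at 7.72 to 10.9 CPM in NC and 9.77 to 12.96 CPM in KD. NC rose by 1.72 ± 0.21 and KD moved by 0.03 ± 0.20 (adjusted p = 0.951), for an interaction of -1.69 ± 0.29 (adjusted p = 0.019). The line difference was 0.95 ± 0.21 at control (adjusted p = 0.0139) and -0.74 ± 0.20 at 12 h (adjusted p = 0.0655). The test placed it with unequal controls while 0.44 of its size lay at 12 h. Its call was lost without 6 libraries (NC control 2, NC 12 h 1 and 3, KD control 1, KD 12 h 2 and 3; adjusted p up to 0.0816), and reads may be split with its near copy Ifit3b, whose interaction was -1.27 (adjusted p = 0.438).

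Of the 27 tested interferon response genes, none had a positive interaction at 12 h. The median was -0.61, beside -0.01 over all genes, and 1 member, Ifit3, passed (0.0125% of all genes passed as lower). With a term for the library number, 7 members passed as lower at 12 h, beside 205 of all tested genes. At control 4 members were higher in KD (0.763% of all genes; Ifit1, Xaf1, Oasl2 and Ifit3) and at 12 h 2 were lower (1.1%; Isg15 and Rsad2). The median line difference went from 0.35 at control to -0.22 at 12 h and 0.24 at 24 h, so the sign differed between control and 12 h. In NC 10 members rose and 0 fell by 12 h (6.69% and 5.55% of all genes), in KD 4 rose and 5 fell (7.93% and 8.06%). Isg15, a ubiquitin-like modifier, had 53.2, 37.9 and 46.4 CPM in NC control and 56.8, 44.1 and 50.1 CPM in KD control. At 12 h it had 236, 182 and 197 CPM in NC and 106, 95.9 and 72.3 CPM in KD. It overlapped at control and not at 12 h, and its interaction of -1.30 ± 0.26 lay just outside the threshold (adjusted p = 0.0566). At 24 h the list's median interaction was -0.12, with 8 of 27 positive and none past the threshold (3 had an unadjusted p under 0.05).

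Genes of mitosis and DNA replication had mostly negative interactions at 12 h, none of them past the threshold in the fit without a term for the library number. Of 24 G2/M and mitosis genes, 24 fell in KD and 17 in NC by 12 h (8.06% and 5.55% of all genes), with medians of -1.63 and -0.98. None of the 24 had a positive interaction at 12 h, the median was -0.59, and 0 passed after adjustment in edgeR, while 11 had an unadjusted p under 0.05. The median line difference was 0.22 at control, -0.39 at 12 h and 0.06 at 24 h, and Ccnb2, a mitotic cyclin, was the member lower in KD at 12 h (-0.87, adjusted p = 0.0212). Cdk1, the mitotic kinase, fell by 0.87 in NC and by 1.86 in KD, with an interaction of -0.98 (adjusted p = 0.413). Of 26 DNA replication genes, 15 fell in KD and 7 in NC, the median interaction was -0.51 with 6 positive, and 0 passed, while 10 had an unadjusted p under 0.05. Cdc6, which loads helicases at origins, was higher in KD at control by 1.78 (adjusted p = 0.0142) and had an interaction of -2.61 (adjusted p = 0.0952). In bulk RNA, fewer cells in a phase and less RNA per cell cannot be told apart.

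The other lists held few interaction genes in the fit without a term for the library number. Plau was the member of the matrix protease and adhesion list that passed, 1 of 17 at each time (0.0625% and 0.025% of all genes passed as positive). Mmp12, the macrophage elastase of the same list, fell just outside at 12 h (-2.03 ± 0.40, adjusted p = 0.0501). It had 4.80, 6.76 and 5.51 CPM in NC control and 29.9, 65.2 and 63.2 CPM in KD control. KD was higher than NC in every library at control, and at 12 h it was still higher, at 11.4, 15.3 and 15.1 CPM against 4.28, 6.65 and 7.53 CPM. No member passed in the remaining lists in the same fit. Median interactions at 12 h and 24 h were -0.12 and -0.11 for inflammatory cytokines and mediators (14 tested), -0.13 and -0.13 for NF-kB targets (16 tested), and 0.07 and 0.02 for NRF2 targets and glutathione (20 tested). They were -0.04 and -0.15 for heme and iron handling (22 tested) and -0.03 and -0.16 for endoplasmic reticulum chaperones (18 tested). They were 0.12 and 0.13 for the Bcl2 family (12 tested) and 0.09 and -0.10 for necroptosis and death receptors (15 tested). In the inflammatory list 11 of 14 members rose in each line at 12 h (6.69% of all genes in NC and 7.93% in KD). The list's median change was 3.25 in NC and 3.23 in KD. The cystine transporter gene Slc7a11, an NRF2 target that ATF4 also drives, rose from 221, 336 and 334 CPM to 1406, 1958 and 1951 CPM in NC and from 127, 203 and 155 CPM to 2114, 2915 and 2770 CPM in KD at 12 h. KD crossed from lower to higher, with an interaction of 1.43 ± 0.30 (adjusted p = 0.0825), which did not pass.

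**Figure D5:**
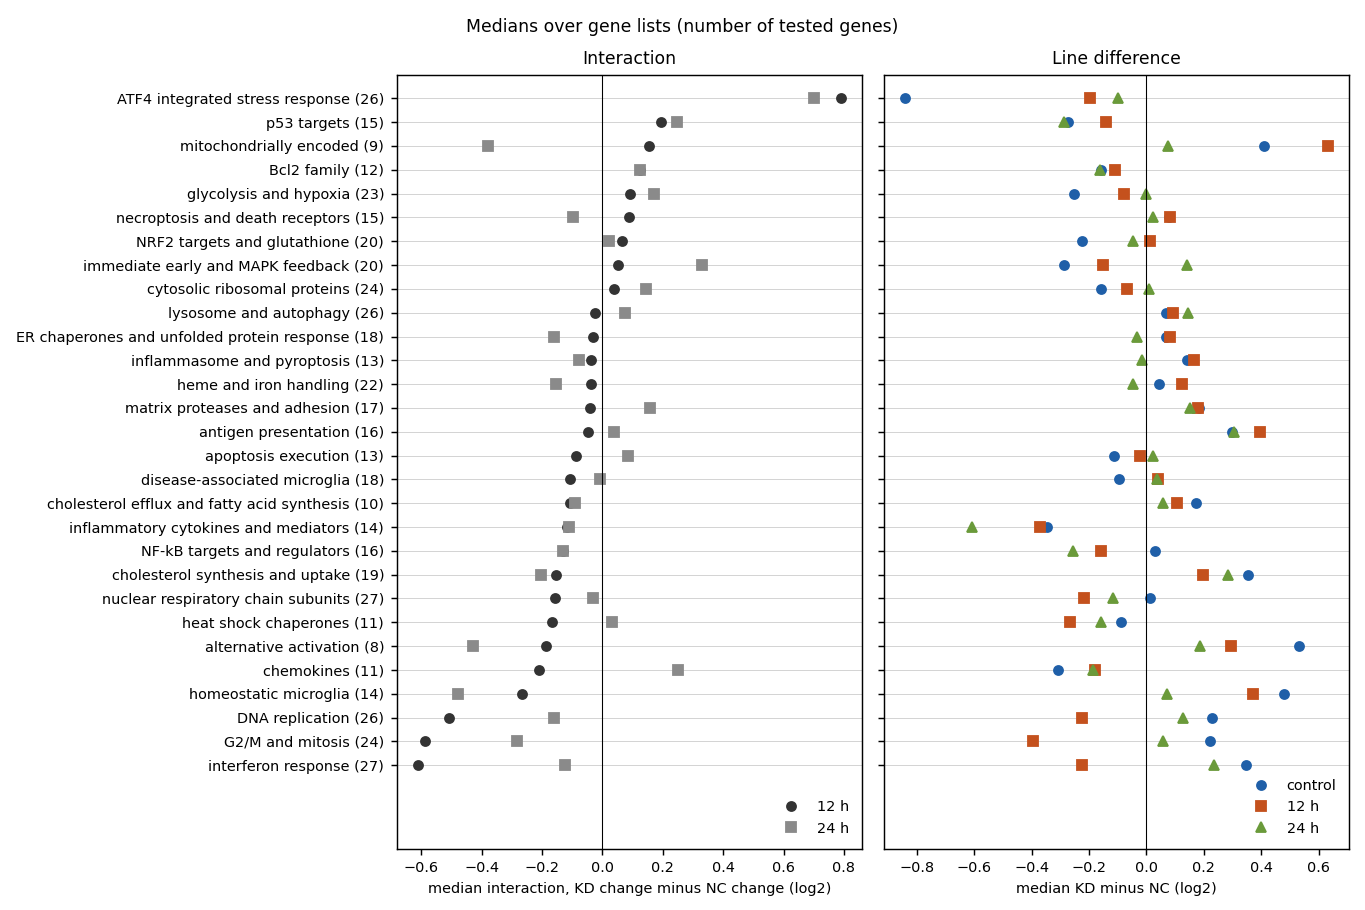
Median log2 interaction at 12 h and 24 h (left) and median line difference at control, 12 h and 24 h (right) for each gene list, with the number of tested genes in brackets. The integrated stress response list lies farthest to the right on the left panel, at 0.79 and 0.70, and its control point lies farthest to the left on the right panel, at -0.84.

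Beyond Kcnj2, no gene passed the comparison of the 24 h with the 12 h interaction in the fit without a term for the library number. The 9 next genes by p (Gm11737, Dnajb14, H3c10, Psap, Cd14, Hilpda, Ska3, Ifnlr1 and Irf1) all had an adjusted p of 0.755. Hilpda, a lipid droplet protein induced by hypoxia, had 70.1, 70.8 and 78.6 CPM in NC control and 25.6, 20.9 and 26.4 CPM in KD control. Levels at 12 h were 150, 128 and 159 CPM in NC and 54.2, 64.7 and 59.3 CPM in KD, below NC in every library. It had 91.2, 68.7 and 63.5 CPM in NC and 57.1, 55.5 and 61.5 CPM in KD at 24 h. KD was below NC in every library at each time, and the gap was narrowest at 24 h, with interactions of 0.30 ± 0.23 and 1.23 ± 0.23 (adjusted p = 0.999 and 0.0662). Cd14, a co-receptor for lipopolysaccharide, rose by 2.00 in NC and 1.34 in KD by 12 h and by 1.09 and 1.27 by 24 h. Its lines overlapped at control and at 24 h but not at 12 h, where NC had 1091 to 1297 CPM and KD 662 to 772 CPM.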

How the data were processed

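RNA was sequenced from 18 BV2 samples, grouped by their titles. HISAT2 2.2.0, bcl2fastq, DESeq2 and featureCounts, with build GRCm38, are named in the submitters' processing notes. No source used here gives the annotation release or strand setting. The deposited counts are whole reads per gene, not normalized, for 55487 genes. The TPM deposited by the authors equal these counts divided by gene length and rescaled, to within 4.89e-05, and served only in alternatives, as log2(TPM + 1) or log2(TPM + 0.1) with limma 3.58.1.

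Counts were tested with edgeR 4.0.16 in R 4.3.3 (quasi-likelihood F test, as fitted over all 18 libraries, TMM factors, filterByExpr with a minimum count of 10, 1 mean for each of 6 groups, robust, 12 residual degrees of freedom). The 15996 genes tested held 99.65% of the counts, and p-values were adjusted over all of them by Benjamini-Hochberg. An interaction was traced to controls or treated levels by which line difference passed 0.05. CPM use the TMM-scaled library totals, except those of the cell type markers, which use the library totals without TMM factors. Intervals are 95%. Genes were handled by ID, since 114 symbols stood on more than 1. Positions are from GENCODE M21 (GRCm38). The test of an interaction was tried on simulated data, with effects placed in the KD 12 h group only. The simulated data held no unequal controls and no effect of library number. The tracing of an interaction to its source was therefore not tested there.

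Genes were named by a rule: Bak1, up to 10 genes past the threshold in each direction with a mean of 5 CPM in the highest group, the 10 lowest p of the joint test and of 24 h against 12 h, and up to 3 passing members of each of 29 lists. Values in every library are given for the 12 lowest joint p and leading list members. Chac1, Isg15, Mmp12, Slc7a11 and the other list members described were picked after their values were seen. The members and lists were chosen with earlier results of these data known. Alternatives tried: upper-quartile or RLE factors, no filter, a filter of 5 CPM in 3 libraries, DESeq2 1.42.0, a replicate block, the compared groups alone, TPM, the largest gene left out, and each library left out. Leaving out all 6 libraries numbered 2 was added after seeing the data.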

Additional observations from a re-analysis of the deposited data

Results flagged for a closer look

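The responses of the lines differed by a test of the difference itself (edgeR's quasi-likelihood test, adjusted p under 0.05) in 18 gene tests. At 12 h the log2 interaction, KD change minus NC change, was 6.25 for AC147806.2 (a fitted value against a group at 0, and so no measure of size), 2.41 for Trp53cor1, 2.31 for Trib3, 2.19 for Gm38575, 1.78 for Spink5, 1.56 for Aldh1l2, 1.34 for Glrp1, 1.16 for Plau, 1.11 for Kcnj2, 1.01 for Gpt2, -1.62 for Sgo2a and -1.69 for Ifit3. At 24 h it was 6.16 for AC147806.2 (also fitted), 1.99 for Trib3, 1.77 for Aldh1l2, 1.13 for Plau and -1.75 for Serpinb1a. The 24 h interaction minus the 12 h interaction was -1.40 for Kcnj2. Of these 18, 5 held whichever of the 18 libraries was left out, namely Trib3 at 12 h and Aldh1l2 and AC147806.2 at both times, and all 18 kept their direction in every alternative run. Only 2, Trib3 at 12 h and 24 h, passed in every other alternative. Aldh1l2 at 12 h did not pass in the TPM fits or with only the compared groups fitted. AC147806.2 did not pass at either time in the log2(TPM + 1) fits. Neither gene passed at either time without the 6 libraries numbered 2.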

How the results depend on the processing

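The 18 single-gene interactions kept their direction in every alternative run. Counts past the threshold, their balance of positive and negative, and their sources moved, and the cause was not tested. As reported, 12 genes passed at 12 h (10 by unequal controls, 2 by unequal treated levels, 0 by both or neither, 4 with opposite changes in the lines), 5 at 24 h (4, 0, 1 and 1 in the same order), 10 jointly and 1 between times. Without a filter they were 46 (25, 13, 8, 1), 33 (21, 7, 5, 3) and 66 jointly. DESeq2 gave 51 (29, 15, 7, 5), 38 (21, 9, 8, 4) and 70. With the replicate block they were 331 (132, 133, 66, 13), 193 (81, 66, 46, 14), 415 and 112 between times. With only the compared groups fitted they were 2 (2, 0, 0, 0) and 4 (3, 0, 1, 1). With 5 CPM in 3 libraries they were 17 (10, 6, 1, 4) and 8 (7, 0, 1, 2), with upper-quartile factors 15 (11, 3, 1, 4) and 8 (7, 0, 1, 1), and with the largest gene left out 17 (11, 5, 1, 4) and 5. Limma on log2(TPM + 1) gave 13 (8, 3, 2, 1), 13 (12, 1, 0, 1) and 15 jointly, on log2(TPM + 0.1) 13 (8, 3, 2, 1), 9 (9, 0, 0, 1) and 13, and on log2(TPM + 1) without a filter 20 (13, 5, 2, 2), 25 (16, 8, 1, 2), 29 and 8 between times. Without all 6 libraries numbered 2, an alternative added after seeing the data, they were 2 (2, 0, 0, 0), 1 (1, 0, 0, 1), 1 and 0. Leaving out 1 library at a time gave 3 to 19 (3 to 12, 0 to 8, 0 to 1, 0 to 4) at 12 h, 2 to 10 (2 to 8, 0 to 1, 0 to 1, 0 to 2) at 24 h, 4 to 12 jointly and 0 to 1 between times. DESeq2 and the block held all 12 and 5 reported genes, the fit without a filter 11 and 5, and the TPM fits 3 to 4 of 12 and 3 of 5. The share of interactions placed with unequal controls was 39.9% at 12 h and 42% at 24 h under the replicate block, with 132 genes by unequal controls beside 133 by unequal treated levels at 12 h, so the majority by unequal controls was seen without the block and not with it. The balance also turned, from 10 positive and 2 negative interactions at 12 h to 126 and 205 with the block, and from 4 and 1 at 24 h to 122 and 71. With the block the lists held more passing members: 11 of 26 integrated stress response genes positive at each time, and at 12 h 7 of 27 interferon, 8 of 24 G2/M and 8 of 26 DNA replication genes negative. Immediate early genes had 2 positive members at 12 h and 5 at 24 h, endoplasmic reticulum chaperones 2 negative at each time, lysosome genes and p53 targets 2 positive at 12 h, and no other list more than 2 in a direction. The integrated stress response list had 8 members lower in KD at control in each TPM fit and without the libraries numbered 2, and 8 to 16 with 1 library left out. Its median interaction at 12 h was 0.68 to 0.87 with 1 library left out.

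Whether library numbers pair samples is not in the labels. Deviations of same-numbered libraries correlated between groups by 0.0703 to 0.467, over 0.1 in 43 of 45 pairs, and 18 of 18 libraries correlated best with their own number, which is a hint from the data and not the design. At a depth of 4361313 to 6008810 counts with 3 libraries a group, the median standard error of an interaction was 0.432. The smallest interaction that passed was 1.01 at 12 h and 1.13 at 24 h, so smaller ones may have been missed. The part of depth in this was not tested.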

Other observations

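Microglia homeostatic genes, which mark resting microglia, had no member with an interaction past the threshold in the fit without a term for the library number. Of 14 tested members, 4 fell in NC and 9 in KD by 12 h (5.55% and 8.06% of all genes). By 24 h, 7 fell in NC and 9 in KD (2.91% and 4.09% of all genes). At control 4 were higher in KD (0.763% of all genes), and 2 were at each treated time (0.5% and 0.469%). The list's median interaction was -0.27 at 12 h and -0.48 at 24 h, with 5 and 2 members positive and 2 at an unadjusted p under 0.05 at each time. The mitochondrially encoded genes had a median interaction of 0.15 at 12 h and -0.38 at 24 h, with 7 and 0 of 9 positive and 0 past the threshold or at an unadjusted p under 0.05 in edgeR. Arg1, arginase 1, had 45.9, 50.1 and 47.8 CPM in NC control and 8.75, 8.23 and 16.0 CPM in KD control, and fell to 3.59 to 4.73 CPM in NC and 2.59 to 4.62 CPM in KD at 12 h. The lines were apart at control and overlapped at 12 h, and the interaction of 1.97 ± 0.48 did not pass (adjusted p = 0.165). Ccr1, a chemokine receptor, rose in KD from 24.6, 22.9 and 30.4 CPM to 124, 88.2 and 135 CPM at 12 h, beside 132, 127 and 180 CPM and 214, 177 and 290 CPM in NC, with an interaction of 1.53 ± 0.37 (adjusted p = 0.165). Both genes were chosen after their values were seen.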
